A study of Homo sapiens with 6 samples.

Results

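The urea cycle and arginine metabolism genes are 10 genes of the count table, found by their symbols, out of 20381 genes in all. They were the urea cycle enzymes *NAGS*, *CPS1*, *OTC*, *ASS1*, *ASL* and *ARG1*, the mitochondrial carriers *SLC25A15* and *SLC25A13*, and the arginine- and ornithine-using enzymes *ARG2* and *ODC1*. RNA-seq was performed on poly(A) RNA of HCCLM3 cells, a human hepatocellular carcinoma (HCC) line with low expression of *PON1*, which encodes the lipoprotein-associated esterase and lactonase paraoxonase 1. There were 3 libraries of a line that stably overexpressed *PON1* after lentiviral infection with its coding sequence and puromycin selection (PON1-OE), and 3 libraries of the selected control line (NC), described as carrying an empty lentiviral vector. The promoter that drives the transgene, and whether a line is a clone or a pool, are not given in the sources used here. The sources also do not state whether the replicates were separate cultures, so that p-values measure the spread between these libraries, which may be technical. The series record mentions 15% serum and cell lysis at 24 hours after transfection, whereas the sample labels name a stable line. Values of single libraries are given in the order of replicates 1 to 3, and errors are SD over the 3 libraries of a group. The question here was how HCCLM3 cells express this pathway and whether its genes differed between PON1-OE and NC.

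The urea cycle turns ammonia, bicarbonate and the nitrogen of aspartate into urea and is completed in hepatocytes. Its first steps lie in the mitochondrion, where NAGS makes the activator of CPS1, CPS1 makes carbamoyl phosphate and OTC joins it to ornithine to give citrulline. SLC25A15 exchanges ornithine and citrulline across the inner membrane, and SLC25A13 (citrin) exports aspartate. In the cytosol ASS1 and ASL make argininosuccinate and then arginine, which ARG1 splits into urea and ornithine. ARG2 is the mitochondrial arginase of many tissues outside the liver, and ODC1 carries ornithine into polyamine synthesis. Loss of *ASS1* is well known in HCC and makes such cells depend on arginine from outside.

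The estimated counts, rounded, summed to between 15706664 and 17948372 per library. *PON1* was counted 0, 2 and 3 times in NC, against 155, 181 and 167 times in PON1-OE, as the labels state. The hepatocyte character of the cells was partial by markers. Of 16 hepatocyte markers 7 had a mean of 3 counts or fewer, *APOC3* and *G6PC1* had no count, and albumin (*ALB*) had 4 to 13 counts per library, while the hepatocyte transcription factor *HNF4A* had 1223 to 1492. The summed level of these markers was 112 to 117 CPM (counts scaled to the TMM-normalized library size) in NC against 107 to 113 CPM in PON1-OE, so the groups overlapped, but *HNF4A* alone held 78.6 CPM of it in NC and 80.2 CPM in PON1-OE. Without *HNF4A* the other 15 markers summed to 32.6 to 39.6 CPM in NC against 29.1 to 31.4 CPM in PON1-OE, with no overlap. Among single genes tested, 7.74% were likewise lower in PON1-OE with no overlap, and 8.32% were higher. Most of this sum came from 1 marker gene, *TF*, whose mean CPM was 21.3 (NC) against 19.0 (PON1-OE). Its log2FC was −0.16, with an adjusted p of 0.528 from edgeR. All 6 of these 15 markers that could be tested had a log2FC below 0, from −0.60 to −0.16, with adjusted p of 0.443 or more in edgeR. *HNF4A*, the other tested hepatocyte marker, had a log2FC of 0.03. Of all 11958 genes tested 6095 had a log2FC below 0. The part of this lower marker sum in the differences below was not tested. Hepatoma and epithelial markers were uneven as well. *KRT8* and *KRT18*, epithelial keratins, reached 35483 to 42426 and 24078 to 26723 counts. Of the 7 markers of this list 2 had a mean of 3 counts or fewer, *GPC3* with 0 and *EPCAM* with 0 to 8 counts. *AFP* had 4 to 18 counts per library, *KRT19* 58 to 74 and *CDH1* 191 to 264. Among markers of other cell types, 4 of 6 fibroblast, 4 of 6 leukocyte and 1 of 4 endothelial markers had a mean of 3 counts or fewer, and *PTPRC* and *CD3E* had none. The other markers of these lists were counted. *LUM* had 191 to 264 and *DCN* 58 to 107 counts per library, *CD68* 3514 to 4097 and *ITGAM* 81 to 95. *PECAM1* had 216 to 249, *KDR* 137 to 205 and *VWF* 5 to 12. Among the 18 markers that could be tested, of 16 hepatocyte, 7 hepatoma and epithelial, 6 fibroblast, 6 leukocyte and 4 endothelial ones, edgeR's quasi-likelihood test gave its smallest adjusted p, 0.252, for *CD68* (log2FC 0.13), and *APOB* had an adjusted p of 0.443 (log2FC −0.36).

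HCCLM3 cells expressed the cytosolic middle of the cycle, both carriers and *ODC1*, while *CPS1*, *OTC* and *ARG1* had at most 1 count in any library. *OTC* (ENSG00000036473, chromosome X from 38352545 to 38421450, plus strand, GRCh38) had a count of 0 in all 6 libraries, which allows a level of up to 0.0301 CPM over all libraries together, a limit that covers counting error only. *CPS1* (ENSG00000021826, chromosome 2 from 210477682 to 210679107, plus strand) had 3 counts in all, 1 each in NC replicate 2, PON1-OE replicate 1 and PON1-OE replicate 3. *ARG1*, the liver arginase (ENSG00000118520, chromosome 6 from 131573144 to 131584332, plus strand), had 1 count, in NC replicate 1. These 3 genes stayed at or under a floor of 3 counts per library, which corresponded to 0.166 to 0.192 CPM, in both groups, so no fold is given for them. Fewer cells that express a gene and less RNA per cell cannot be told apart in such bulk libraries.

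To compare levels between genes, the counts were divided by exonic length (TPM, scaled by the exon union of GENCODE v29 and the library size). *ODC1*, the first enzyme of polyamine synthesis, had the highest level of the 10 genes, with 253 ± 33.7 TPM in NC and 278 ± 20.5 TPM in PON1-OE (SD, n = 3). The aspartate-glutamate carrier *SLC25A13* followed with 137 ± 6.27 TPM in NC and 143 ± 4.04 TPM in PON1-OE. *ASL* came next with 52.4 ± 2.48 TPM in NC and 60.8 ± 3.25 TPM in PON1-OE. These genes were above the median of the tested genes, 21.7 TPM in NC, and the remaining genes were below it.

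The ornithine carrier *SLC25A15* had 11.2 ± 0.794 TPM in NC and 12.3 ± 1.47 TPM in PON1-OE. *ASS1*, which makes argininosuccinate, had 10.3 ± 0.237 TPM in NC and 7.39 ± 3.23 TPM in PON1-OE. The ranges of *SLC25A15* and *ASS1* overlapped in NC, and their order there turned when the longest transcript was used as length, to 9.19 TPM for *SLC25A15* and 11.3 TPM for *ASS1*. *ARG2* had 4.82 ± 0.784 TPM in NC and 3.39 ± 0.399 TPM in PON1-OE, and *NAGS*, the lowest gene kept by the filter on low counts, had 1.94 ± 0.370 TPM in NC and 1.81 ± 0.386 TPM in PON1-OE. All other neighbors in the order, from *ODC1* down to *NAGS*, had ranges that did not overlap in either group.

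**Figure D1:**
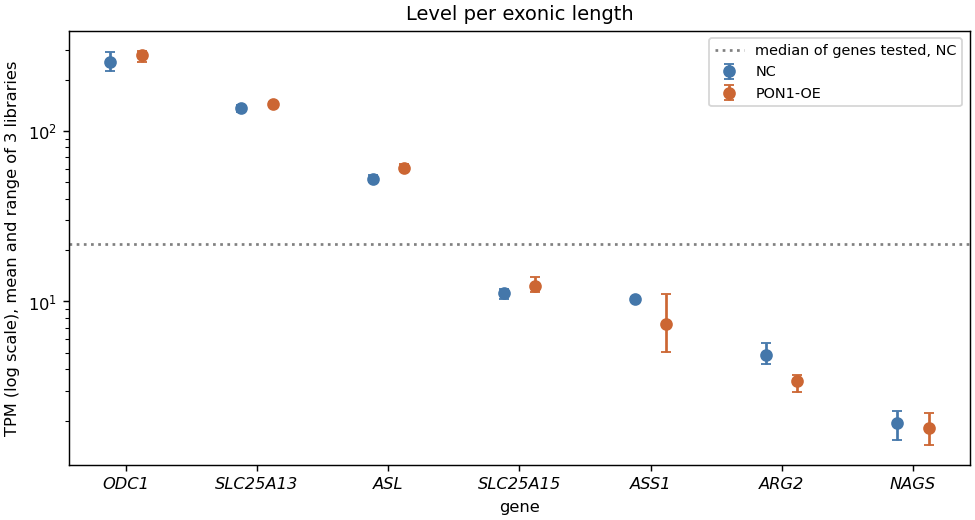
Level of the 7 detected genes per exonic length (y axis, TPM on a log scale) by gene (x axis) in NC (blue) and PON1-OE (orange); points are means and bars the range of 3 libraries. *ODC1*, *SLC25A13* and *ASL* lie above the median of the genes tested in NC (dotted line, 21.7 TPM), and *CPS1*, *OTC* and *ARG1*, at or under the floor, are not drawn.

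Of the arginases, the mitochondrial isozyme *ARG2* had 255 counts over the 6 libraries and the liver isozyme *ARG1* had 1. The start regions of both genes are shown because they differ in base composition as the detected genes of the pathway and those at the floor did. All 10 genes matched windows of 300 bases (250 before to 50 after a start) from RefSeq on GRCh38.p14, 14 windows in all. The GC content was 36.7% to 45.3% in the 5 windows of *CPS1*, *OTC* and *ARG1*, with 1 to 3 CpG each, and 64.3% to 80.7% in the 9 windows of the 7 detected genes, with 15 to 46 CpG each. The median over all 35116 windows of the table was 58.7% GC and 14 CpG. These windows were not divided by whether a gene was detected, so whether the difference is particular to this pathway was not tested.
ARG1, chr6:131572976-131573275, plus strand, with TATAAA in capitals: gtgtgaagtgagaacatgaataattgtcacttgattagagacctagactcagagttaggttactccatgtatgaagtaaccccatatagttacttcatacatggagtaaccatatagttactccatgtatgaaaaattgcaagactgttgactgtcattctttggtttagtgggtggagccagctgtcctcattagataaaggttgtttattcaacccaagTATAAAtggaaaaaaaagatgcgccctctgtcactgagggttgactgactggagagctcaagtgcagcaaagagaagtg
ARG2, chr14:67619670-67619969, plus strand, with TGACGTCA in capitals: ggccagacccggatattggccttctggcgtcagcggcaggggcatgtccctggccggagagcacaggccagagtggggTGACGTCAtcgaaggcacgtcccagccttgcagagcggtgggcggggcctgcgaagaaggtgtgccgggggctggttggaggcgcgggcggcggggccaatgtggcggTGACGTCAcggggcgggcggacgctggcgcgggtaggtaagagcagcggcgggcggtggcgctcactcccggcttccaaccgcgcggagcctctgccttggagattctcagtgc
The TATAAA of *ARG1* begins 29 bases before the start, and 11.5% of all windows hold this motif on either strand. Among the members the window of *OTC*, also at the floor, holds it as well. The palindrome TGACGTCA, the cAMP response element, occurs at 172 and 64 bases before the start of *ARG2*, and 1.85% of all windows hold it. Starts of *ASS1* and *ODC1* with the E-box CACGTG, which 7.26% of all windows hold, are given because both genes are known to be regulated through E-boxes.
ASS1, chr9:130444711-130445010, plus strand, with CACGTG in capitals: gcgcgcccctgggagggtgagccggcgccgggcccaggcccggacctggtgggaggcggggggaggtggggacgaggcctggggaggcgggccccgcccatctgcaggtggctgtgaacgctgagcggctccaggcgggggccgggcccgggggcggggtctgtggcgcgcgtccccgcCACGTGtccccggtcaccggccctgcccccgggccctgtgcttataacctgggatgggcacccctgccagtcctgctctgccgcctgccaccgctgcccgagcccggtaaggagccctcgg
ODC1, chr2:10447963-10448262, minus strand, with CACGTG in capitals: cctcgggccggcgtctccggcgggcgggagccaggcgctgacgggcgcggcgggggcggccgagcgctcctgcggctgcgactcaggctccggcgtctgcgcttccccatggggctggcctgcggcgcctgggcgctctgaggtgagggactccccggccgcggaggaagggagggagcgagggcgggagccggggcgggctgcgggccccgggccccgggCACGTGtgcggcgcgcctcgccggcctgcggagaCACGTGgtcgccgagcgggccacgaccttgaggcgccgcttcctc
The E-box of *ASS1* begins 71 bases before this start, and the other *ASS1* window in the table holds none. The *ODC1* window belongs to the more downstream of 2 starts in the table, and its window at the other start holds no CACGTG. The motif also occurs in the window of *SLC25A13* and in 1 of 3 windows of *CPS1*, which was at the floor. A match is a description of these letters and says nothing of binding in HCCLM3 cells.

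In the comparison of PON1-OE with NC, 0 of the 7 members kept by the filter passed a Benjamini-Hochberg adjusted p of 0.05 in edgeR's quasi-likelihood test, where 0.677% of the 11958 genes tested did. *CPS1*, *OTC* and *ARG1* were removed by the filter and had no testable level. At an unadjusted p under 0.05 there were 4 members, *ASL* and *ODC1* with a higher mean in PON1-OE and *ARG2* and *ASS1* with a lower mean. Of all genes tested 11.1% passed this threshold, 5.91% with a higher and 5.17% with a lower level in PON1-OE. At an unadjusted p under 0.05 DESeq2 gave 1 member (*ASL*), where 5.51% of its genes passed, and limma-voom gave 4 members, where 10.9% passed. At an adjusted p under 0.05 both gave 0 members, where 2.62% of the genes with an adjusted p passed in DESeq2, 3 members among those genes, and 0.544% in limma-voom. The median log2FC of the 7 members was 0.07, against −0.0025 over all genes tested. There was no overlap between PON1-OE and NC libraries for *ASL*, higher in PON1-OE, and *ARG2*, lower in PON1-OE. The same held for 16.1% of the genes tested, 8.32% higher and 7.74% lower. The summed level of the hepatocyte markers other than *HNF4A*, most of it from *TF*, was also lower in PON1-OE, though not each marker was. A link of this sum to *ARG2* or *ASS1* was not tested.

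**Figure D2:**
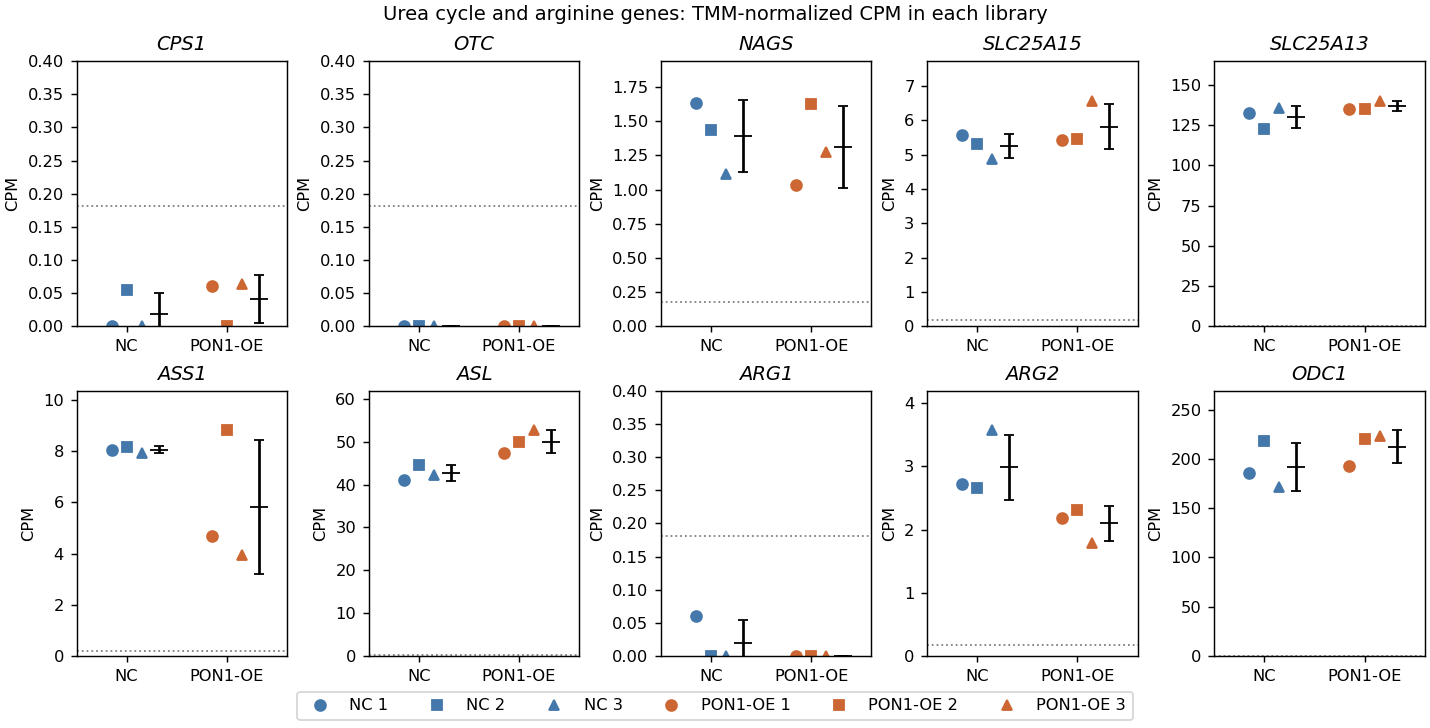
TMM-normalized CPM (y axis, one linear scale per gene) of the 10 genes in each library of NC (blue) and PON1-OE (orange); symbols mark the replicate number, black bars the mean ± SD and dotted lines the mean floor of 3 counts. *CPS1*, *OTC* and *ARG1* lie under the floor, and PON1-OE replicate 2 lies with NC for *ASS1*.

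*ARG2* (ENSG00000081181, chromosome 14 from 67619798 to 67651720, plus strand, GRCh38) showed the lowest log2FC of the members. The libraries measured 2.73, 2.65 and 3.58 CPM in NC, against 2.19, 2.31 and 1.79 CPM in PON1-OE. All PON1-OE values were lower than all NC values, with NC replicate 3 the highest and PON1-OE replicate 3 the lowest. A two-sided exact permutation test gave p = 0.1, and no smaller value is possible with 3 libraries per group. The log2FC was −0.51 (standard error 0.24, 95% confidence interval −0.997 to −0.014), with an unadjusted p of 0.0433 and an adjusted p of 0.435 from edgeR. The estimated counts behind it were 28.5 to 60.7 per library. The unadjusted p stayed under 0.05 in 8 of 12 alternatives. Of the 4 others 1 was another model with all libraries, and 3 left out a library, with an unadjusted p of 0.201 without NC replicate 3 (log2FC −0.36), 0.146 without PON1-OE replicate 3 (log2FC −0.40) and 0.0680 without PON1-OE replicate 1 (log2FC −0.53). *VTI1B*, a gene for a vesicle fusion protein on the opposite strand, shares 904 exonic bases with *ARG2*, 37.4% of the exons of *ARG2*, and the kit named in the labels does not mark strand. *VTI1B* itself measured 45.0 ± 1.32 CPM in NC against 41.0 ± 1.57 CPM in PON1-OE, with a log2FC of −0.13 (standard error 0.063, unadjusted p = 0.0441 and adjusted p = 0.438 from edgeR). Reads of *VTI1B* and *ARG2* cannot be told apart where the exons overlap, and their part in the difference was not tested.

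*ASS1* (ENSG00000130707, chromosome 9 from 130444929 to 130501274, plus strand) differed more within PON1-OE than within NC. NC had 8.05, 8.18 and 7.92 CPM, whereas PON1-OE had 4.69, 8.82 and 3.96 CPM. PON1-OE replicate 2 was above all NC libraries, while the other PON1-OE libraries were below them, so the groups overlapped (p = 0.4, exact permutation, two-sided). The log2FC was −0.47 (standard error 0.20, 95% confidence interval −0.88 to −0.051), with an unadjusted p of 0.0291 and an adjusted p of 0.383 from edgeR. The value depended on each PON1-OE library. Without PON1-OE replicate 2 the log2FC was −0.89 (standard error 0.16) and the adjusted p from edgeR 0.00857, while 0.852% of the genes tested in that fit passed. Without PON1-OE replicate 1 it was −0.33 with an adjusted p of 0.623, and without PON1-OE replicate 3 it was −0.26 with an adjusted p of 0.771. The values without replicates 2 and 3 were the ends of the range of the adjusted p, and the unadjusted p was under 0.05 in 7 of 12 alternatives. Nothing in the labels sets PON1-OE replicate 2 apart, so the value from all 6 libraries stands as the result.

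*ASL* (ENSG00000126522, chromosome 7 from 66075798 to 66093558, plus strand), which releases arginine from argininosuccinate, had the smallest p of the members. Its NC libraries had 41.1, 44.7 and 42.3 CPM and its PON1-OE libraries 47.2, 49.97 and 52.6 CPM. All PON1-OE values exceeded all NC values (p = 0.1, exact permutation, two-sided). The log2FC was 0.23 (standard error 0.064, 95% confidence interval 0.092 to 0.36), a ratio of the means of 1.17. From edgeR the adjusted p was 0.141, for an unadjusted p of 0.00202. In all 13 alternatives the unadjusted p was under 0.05, between 0.00111 and 0.0166, and the adjusted p was between 0.0801 and 0.464. ENSG00000249319, a gene on the same strand, shares 563 exonic bases with *ASL*, 17.6% of its exons, and had 0 to 10 counts per library, against 679 to 823.7 for *ASL*.

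*ODC1* (ENSG00000115758, chromosome 2 from 10439968 to 10448504, minus strand), which turns ornithine into putrescine, had a higher mean in PON1-OE with overlapping groups. It had 186, 219 and 171 CPM in NC, against 193, 219.8 and 224 CPM in PON1-OE. NC replicate 2 lay among the PON1-OE libraries, which made the groups overlap (p = 0.2, exact permutation, two-sided). The log2FC was 0.14 (standard error 0.066, 95% confidence interval 0.0061 to 0.28), with an unadjusted p of 0.0414 and an adjusted p of 0.428 from edgeR. Without NC replicate 2 the log2FC was 0.25 and the adjusted p 0.0354, where 0.738% of the genes tested passed, and without NC replicate 3 the log2FC was 0.07 and the adjusted p 0.847, the ends of the range over all alternatives. The unadjusted p was under 0.05 in 8 of 13 alternatives. Among genes with a mean of at least 50 counts, *CAP1* (actin-binding), *M6PR* (a lysosomal sorting receptor) and *NOP56* (a nucleolar protein) had the highest Pearson correlation of log2 CPM with *ODC1* over the 6 libraries, each 0.98. Their levels varied less than that of *ODC1*. *CAP1* ran from 353 to 398 CPM, *M6PR* from 535 to 550 and *NOP56* from 163 to 176, against 171 to 224 for *ODC1*. The 6 libraries share the same depth scaling, and 92 of 10572 genes had a correlation over 0.9.

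*SLC25A13*, *SLC25A15* and *NAGS* did not pass either threshold. *SLC25A13* (ENSG00000004864, chromosome 7 from 96120220 to 96322147, minus strand) lay between 122 and 135 CPM in NC, against 135 to 140 CPM in PON1-OE, with a log2FC of 0.07 and a 95% confidence interval of −0.021 to 0.17. It had 2158 to 2305 counts per library and the narrowest interval of the members tested. *SLC25A15* (ENSG00000102743, chromosome 13 from 40789412 to 40810111, plus strand) lay between 4.87 and 5.57 CPM in NC, against 5.42 to 6.58 CPM in PON1-OE, with a log2FC of 0.15 and an interval of −0.17 to 0.46. *NAGS* (ENSG00000161653, chromosome 17 from 44004546 to 44009063, plus strand) had only 17 to 27 counts per library. Its log2FC of −0.09 had an interval of −0.75 to 0.57, so that changes within this interval were not excluded. Its log2FC turned to 0.06 without PON1-OE replicate 1 and 0.04 without NC replicate 1.

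**Figure D3:**
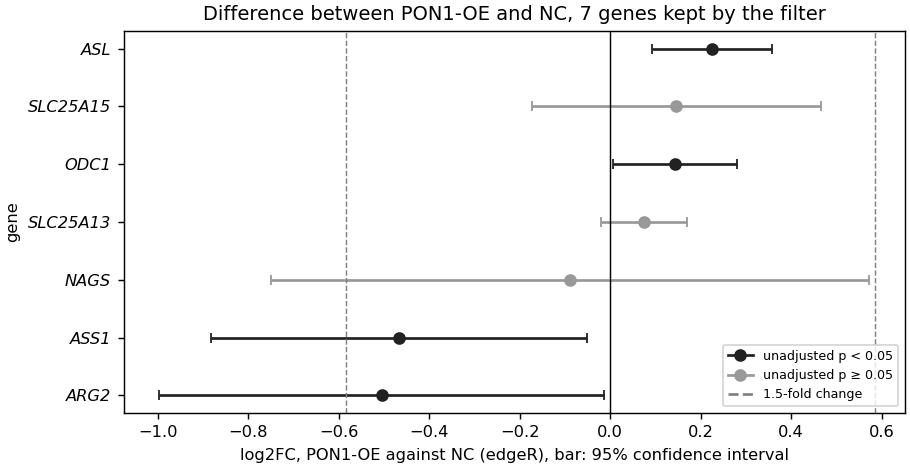
log2FC of PON1-OE against NC (x axis) for the 7 genes kept by the filter (y axis), from edgeR with all 6 libraries; bars are 95% confidence intervals, black marks an unadjusted p under 0.05 and dashed lines a 1.5-fold change. The intervals of *ASL*, *ODC1*, *ASS1* and *ARG2* leave out 0 and those of *SLC25A15*, *SLC25A13* and *NAGS* include it.

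**Figure D4:**
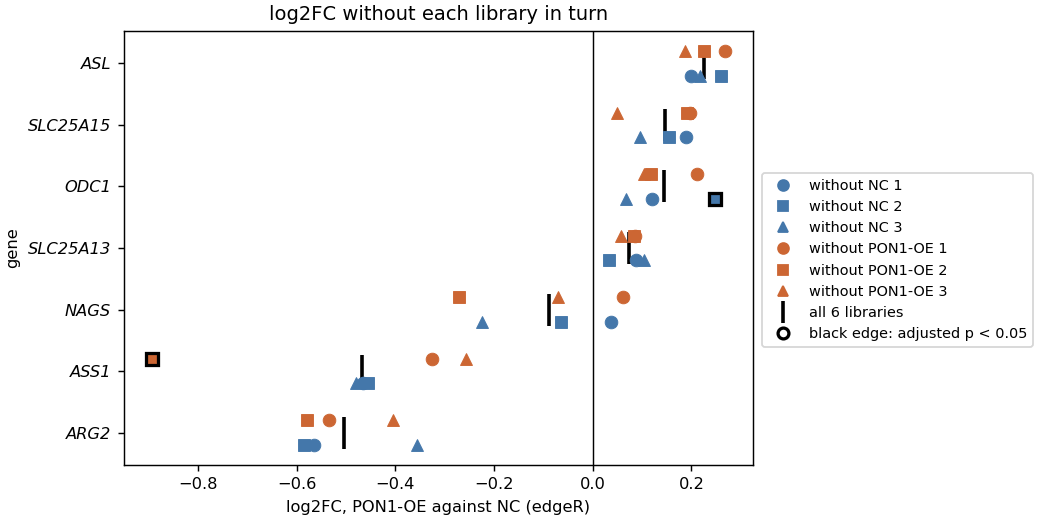
log2FC of PON1-OE against NC (x axis) for the same genes (y axis) with each library left out in turn (colored symbols) and with all 6 libraries (black bars); a black edge marks an adjusted p under 0.05. *ASS1* moves to −0.89 without PON1-OE replicate 2, *ODC1* to 0.25 without NC replicate 2, and *NAGS* takes both signs.

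Around these members, 69 genes of neighboring pathways were listed, of which 60 were tested. At an adjusted p under 0.05 in edgeR 1 of the 60 passed, where 0.677% of all genes tested did. It was asparagine synthetase (*ASNS*), which makes asparagine from aspartate and glutamine. *ASNS* had 372, 363 and 375 CPM in NC, against 419, 467 and 436 CPM in PON1-OE. The groups did not overlap, and the log2FC was 0.25 (standard error 0.039, 95% confidence interval 0.17 to 0.33, adjusted p = 0.00380 from edgeR). Its adjusted p stayed under 0.05 in all 13 alternatives, the leave-one-out fits, DESeq2 and limma-voom among them, with adjusted p up to 0.0259. At an unadjusted p under 0.05 there were 10 of the 60, 6 higher and 4 lower in PON1-OE, where 11.1% of all genes tested passed, 5.91% higher and 5.17% lower. These shares over all genes are also the background of the counts per list that follow, and the median log2FC of the 60 was 0.02.

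By role, the list of polyamine synthesis and catabolism had 14 genes, all tested, with a median log2FC of 0.0034. Of these, 1 had an unadjusted p under 0.05, the spermine oxidase *SMOX*, with 93.6 ± 3.05 CPM in NC against 104 ± 7.10 CPM in PON1-OE (log2FC 0.15, adjusted p = 0.252 from edgeR). The highest gene of this list by TPM was *OAZ1*, the antizyme that sends ODC1 to degradation, with 984 ± 30.6 TPM in NC against 967 ± 27.3 TPM in PON1-OE. Its log2FC was −0.01 with a 95% confidence interval of −0.091 to 0.061. Of 7 genes that interconvert ornithine, proline and glutamate 5 were tested, with a median log2FC of 0.07. Of 12 genes of glutamine, glutamate and ammonia handling 9 were tested, and 3 had an unadjusted p under 0.05, all with a higher mean in PON1-OE, with *ASNS* among them.

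Of 12 genes of nitric oxide, creatine and other arginine use 10 were tested, and the smallest unadjusted p was 0.0648, for *GATM* of creatine synthesis (log2FC −0.23, adjusted p = 0.489 from edgeR). Among 13 genes of arginine and ornithine transport and sensing 11 were tested, with 1 higher and 2 lower at an unadjusted p under 0.05. The smallest p here belonged to the arginine sensor homolog *CASTOR2*, with 8.78, 7.85 and 9.44 CPM in NC, against 6.33, 6.57 and 7.34 CPM in PON1-OE (log2FC −0.36, adjusted p = 0.271 from edgeR). The cationic amino acid exchanger *SLC7A6* came next, with 34.3, 31.6 and 33.1 CPM in NC, against 26.2, 32.7 and 24.8 CPM in PON1-OE (log2FC −0.24, adjusted p = 0.276). As for *ASS1*, PON1-OE replicate 2 lay with the NC libraries for *SLC7A6*, and without it the log2FC of *SLC7A6* was −0.37 with an adjusted p of 0.0275 from edgeR. Of 11 transcription factors known for urea cycle genes or *ODC1*, 2 had an unadjusted p under 0.05, the hepatocyte factors *CEBPA* (log2FC −0.15, adjusted p = 0.442 from edgeR) and *FOXA1* (log2FC −0.27, adjusted p = 0.443). *MYC*, a known activator of *ODC1*, had 491 TPM in NC and 480 TPM in PON1-OE (log2FC −0.02, adjusted p = 0.8895).

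**Figure D5:**
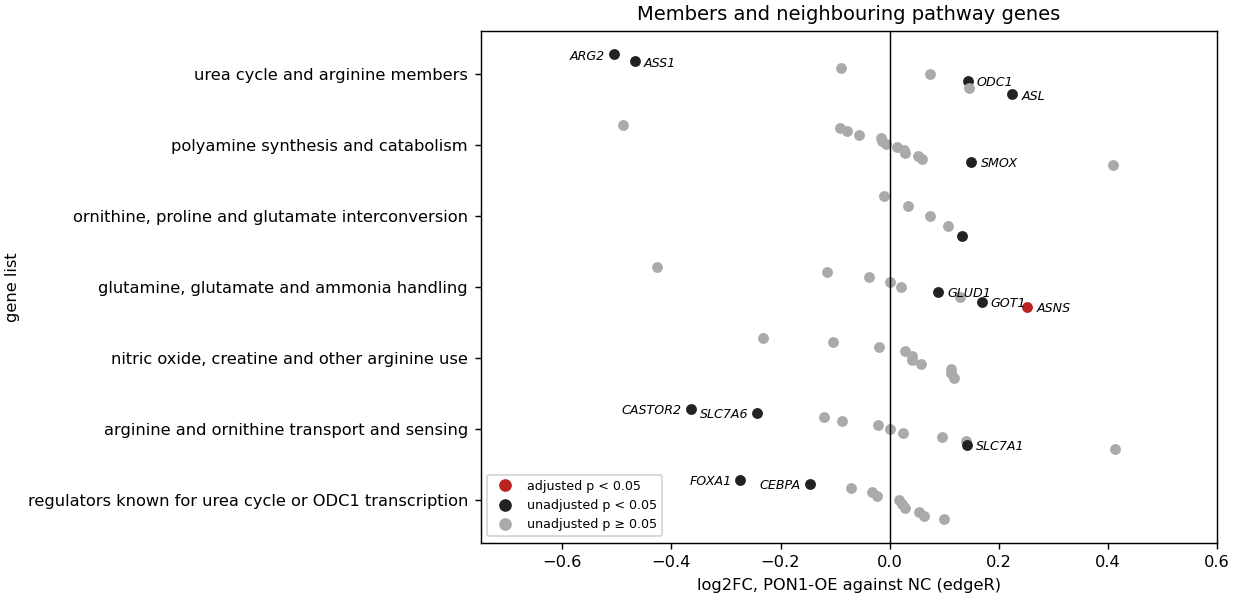
log2FC of PON1-OE against NC (x axis) for the 7 tested members and the 60 tested genes of 6 neighboring lists (y axis, 1 point per gene); red marks an adjusted p under 0.05, black an unadjusted p under 0.05 and gray the rest. *ASNS* at 0.25 is the only red point, and all points lie between −0.51 and 0.41.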

How the data were processed

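Poly(A) RNA of 3 PON1-OE and 3 NC libraries was sequenced on an Illumina NovaSeq instrument. The authors deposited estimated counts per gene for 20381 Ensembl identifiers, without normalization, of which 10.5% were not whole numbers. The submitters' processing notes name Bowtie2 2.2.8, HISAT2, StringTie 1.3.1 and DESeq2, with no roles. The genome build and annotation are not given in the sources used here. Coordinates, exons and lengths were taken from GENCODE v29 (GRCh38) by identifier.

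Columns were assigned to libraries by the library names in the labels. After rounding, PON1-OE was compared with NC by the quasi-likelihood test of edgeR 4.0.16 in R 4.3.3 (filterByExpr, TMM, glmQLFit, glmQLFTest, no covariate). Benjamini-Hochberg adjustment ran over all 11958 tested genes. Standard errors came from the Fisher information of the fit and the posterior quasi-dispersion. TPM used unrounded counts and exon unions. Exact permutation tests on CPM were two-sided. The comparison was repeated with DESeq2 1.42.0, limma-voom (limma 3.58.1), RLE in place of TMM, without the filter or with a minimum of 10 counts per library, with a replicate block, without single libraries, with other thresholds and, chosen after seeing the data, on unrounded counts. The fits were also run on simulated counts, drawn with 1 common dispersion of 0.0019 for all genes. There edgeR called 34 of 50 genes with a simulated log2FC of 0.4 and 49 of 49 with 2, beside 5 false calls. Genes that vary more between libraries were not simulated, so these counts do not carry over to them.

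The members and lists were chosen with earlier results of these data known. Named were all members, *PON1*, list genes with an adjusted p under 0.05 and otherwise the 2 with the smallest unadjusted p under 0.05 per list, the highest gene of a list where a level was compared, and the 3 genes most correlated with the highest member. *VTI1B*, ENSG00000249319, *MYC* and *GATM* were named after their values were seen, as were the marker genes, their sum without *HNF4A* and the sequence motifs. Some genes that this rule names are not reported here.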

Additional observations from a re-analysis of the deposited data

How the results depend on the processing

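The count of genes with an adjusted p under 0.05, 81 in all, moved by more than 1.5 times in several alternatives. It became 177 without the filter on low counts, 123 in DESeq2 (among 4695 genes with an adjusted p) and 40 with the replicate block. With a change over 1.5-fold added it was 6, and at an unadjusted p under 0.05 it was 1325. When single libraries were left out it was 11 to 103. Of these counts, 89 without NC replicate 2 and 103 without PON1-OE replicate 2 stayed within 1.5 times. The cause of these moves was not tested. The count of members was 0 and became 4 at an unadjusted p under 0.05 and 0 to 1 when single libraries were left out, *ODC1* without NC replicate 2 and *ASS1* without PON1-OE replicate 2. The count of neighboring pathway genes was 1 and became 0 with the 1.5-fold minimum, 10 at the unadjusted threshold and 1 to 2 when single libraries were left out. *NAGS* ranged from −0.27 to 0.06 in log2FC without single libraries, positive without NC replicate 1 (0.04) and PON1-OE replicate 1 (0.062). The other 6 tested members kept the sign of their log2FC in every alternative that gave them an adjusted p, and unrounded counts changed no count by more than 1.5 times. Same-numbered libraries of the groups did not deviate together (correlations −0.16 to 0.051, and 0 of 6 libraries correlated best with their own number). Between differently numbered libraries the correlations ran from −0.24 (NC replicate 1 with PON1-OE replicate 3) to 0.29 (NC replicate 2 with PON1-OE replicate 3). The values thus gave no sign of a pairing by replicate number, but so few libraries cannot exclude one. Whether differently numbered libraries were handled together was not tested. With the replicate block 40 genes, 0 members and 1 neighboring gene were called, and the unadjusted p of *ARG2* was 0.0578 (log2FC −0.50). Low counts limit *NAGS*, *ARG2* and the genes at the floor.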

Other observations

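Several enzymes and carriers of the neighboring pathways come in pairs of isoforms encoded by separate genes, and as for the arginases 1 gene of a pair often carried nearly all counts. These pairs were chosen after their values were seen, and no test was made. Carbamoyl phosphate synthesis was represented by *CAD*, the cytosolic enzyme of pyrimidine synthesis, with 53.5 TPM in NC and 53.9 TPM in PON1-OE, while *CPS1* had 3 counts in all. The glutamate dehydrogenase *GLUD1* had 3728 to 4095 counts per library and its retrogene *GLUD2* 0 to 2. The ornithine carrier *SLC25A2* had 0 to 1 counts beside *SLC25A15*. The nitric oxide synthases *NOS1* and *NOS2* had at most 2 counts and *NOS3* 43 to 68. Near-identical copies such as *GLUD1* and *GLUD2* can exchange reads, and how these were divided is not given in the sources used here.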
